A study of Mus musculus with 6 samples.

Results

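A set of 293 of 19988 protein-coding genes was held at a similar group mean in untreated mouse embryonic fibroblasts (MEFs) and in day 8 CDH5+ cells and was higher in day 12 c-KIT+ cells. Members were chosen from the deposited log2 values by fixed limits on the group means of 2 arrays each. The CDH5+ mean lay within 0.5 of the untreated mean, the c-KIT+ mean was at least 1 above the CDH5+ mean and at least 7 in level, and the lower c-KIT+ array was above the highest of the other 4 arrays. A difference of 1 on the log2 scale is a doubling of signal. These values define the set, so the differences between the 3 groups are given for its members as a description and carry no test.

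The arrays follow wild-type mouse fibroblasts on their way to blood. Untreated MEFs were prepared from mid-gestation embryos, were depleted of cells with surface CD31, CD41, c-KIT or CD45 and received no factor. The other populations came from fibroblasts transduced with lentiviruses for 5 factors (SCL, LMO2, RUNX1c, GATA2 and ERG, all regulators of early blood), and were sorted for surface CDH5 at day 8 or for surface c-KIT at day 12. Endothelial cells join through CDH5 (VE-cadherin), and blood progenitors carry c-KIT, which binds stem cell factor. Time, sort marker and culture therefore changed together between the groups, and each sorted population is a mixture of cells that share 1 surface marker.

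Each population has 2 arrays of the Mouse Exon 1.0 ST type, which the labels call biological replicates without saying how far their cultures were apart. Any p-value below measures the spread between these arrays, which may be technical. Endothelial markers had their highest group mean in CDH5+ cells for 21 of 23 genes, blood progenitor markers in c-KIT+ cells for 11 of 12, and fibroblast markers in untreated MEFs for 18 of 21. The median fibroblast marker was at 8.66 in CDH5+ replicate 1 against 6.72 in CDH5+ replicate 2, and the part of this difference in the CDH5+ means of the members was not tested. Probe sets for 802 olfactory receptor genes, which these cells are not known to use, served as a background, and 95% of these genes were below 5.94 to 6.03 in each array. In whole populations, a higher share of cells that transcribe a gene and more RNA per cell cannot be told apart.

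The roles of many members lie in cell division and growth. Before a cell divides, origins of replication are loaded with the MCM helicase, the GINS complex and DNA polymerases copy the genome from nucleotides made anew, histones package the copies, and the kinetochore, the spindle checkpoint and the anaphase-promoting complex separate the chromosomes. Growth between divisions needs new ribosomes, nuclear pores and mitochondria, whose own ribosomes and iron-sulfur clusters serve the respiratory chain. Blood progenitors are known for rapid division. Of the 293 members, 103 belonged to lists of DNA replication and mitosis, 40 to mitochondrial lists, 34 to lists of RNA processing, ribosome assembly, nuclear pore and proteasome assembly, and 116 to none of these. The lists of roles were written after the members were seen, and their counts are a description. Members were 1.47% of all coding genes, and each count of members in a list below is to be set against that share.

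Promoters of 5 members are shown because the set has sequence features that the choice of genes did not use. Windows of 300 bases, from 250 before to 50 after the start of transcription, were taken from RefSeq on GRCm38.p6 and matched 238 of the 293 members by current symbol, with 274 windows in all. In Cdc20, the activator of the anaphase-promoting complex, Aurka, a kinase of the mitotic spindle, and Ttk, a kinase of the spindle checkpoint, capitals mark CCAAT and TTTGAA on either strand. In Nup107, a scaffold protein of the nuclear pore, capitals mark CCGGAA on either strand, and in Exosc5, a subunit of the RNA exosome, CCAAT on either strand.
Cdc20, chr4:118437294-118437593, minus strand: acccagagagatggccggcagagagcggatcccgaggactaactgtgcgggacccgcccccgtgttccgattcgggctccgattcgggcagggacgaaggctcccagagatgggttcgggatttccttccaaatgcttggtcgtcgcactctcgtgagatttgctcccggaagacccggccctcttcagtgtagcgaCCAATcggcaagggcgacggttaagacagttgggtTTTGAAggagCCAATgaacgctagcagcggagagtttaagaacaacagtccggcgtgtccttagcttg
Aurka, chr2:172370521-172370820, minus strand: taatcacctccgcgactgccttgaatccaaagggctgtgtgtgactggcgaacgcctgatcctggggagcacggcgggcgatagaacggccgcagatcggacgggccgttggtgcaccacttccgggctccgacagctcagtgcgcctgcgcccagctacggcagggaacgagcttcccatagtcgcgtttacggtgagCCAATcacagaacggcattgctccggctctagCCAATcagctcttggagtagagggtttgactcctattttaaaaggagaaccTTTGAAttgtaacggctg
Ttk, chr9:83834439-83834738, plus strand: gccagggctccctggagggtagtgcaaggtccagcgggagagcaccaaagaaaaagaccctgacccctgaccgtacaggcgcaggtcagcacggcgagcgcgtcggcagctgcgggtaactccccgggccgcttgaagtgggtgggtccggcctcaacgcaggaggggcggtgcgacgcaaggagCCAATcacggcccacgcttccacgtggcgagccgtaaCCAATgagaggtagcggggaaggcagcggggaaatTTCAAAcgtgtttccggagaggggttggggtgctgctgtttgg
Nup107, chr10:117792656-117792955, minus strand: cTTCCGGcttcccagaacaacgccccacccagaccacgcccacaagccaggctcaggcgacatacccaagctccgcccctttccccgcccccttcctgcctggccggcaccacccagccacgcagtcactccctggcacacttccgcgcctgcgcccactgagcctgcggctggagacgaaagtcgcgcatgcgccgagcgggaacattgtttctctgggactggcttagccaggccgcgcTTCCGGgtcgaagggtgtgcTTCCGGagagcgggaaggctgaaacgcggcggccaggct
Exosc5, chr7:25658903-25659202, plus strand: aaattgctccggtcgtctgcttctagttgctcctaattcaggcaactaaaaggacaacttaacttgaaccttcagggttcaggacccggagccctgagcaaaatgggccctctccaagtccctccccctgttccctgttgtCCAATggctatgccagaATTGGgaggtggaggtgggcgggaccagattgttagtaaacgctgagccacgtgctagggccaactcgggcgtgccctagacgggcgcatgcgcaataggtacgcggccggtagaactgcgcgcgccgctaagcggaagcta

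CCAAT, read on both strands, was in 50.4% of the member windows and in 37.6% of the windows of all measured protein-coding genes. The share was 65.6% among members of the replication and mitosis lists, 51.3% among mitochondrial members, 36.7% among the RNA, ribosome, pore and proteasome members and 41.1% among members in no list. TTTGAA was in 25.2% of member windows against 14.5% of all coding windows, and in 60.4% of windows of members on the lists of cyclins, cyclin-dependent kinases, kinetochore, condensin and cohesin. Genes of those same lists that were not members held CCAAT in 63.9% and TTTGAA in 34.7% of their windows, so CCAAT was about as frequent there as in the members of those lists, at 64.6%. CCAAT and TTTGAA overlapped by sharing a base in 1 of the 274 member windows. CCGGAA, a core of sites read by ETS factors, was in 36.5% of member windows, 31.5% of windows of coding genes with a c-KIT+ mean of at least 7 and 19.9% of all coding windows. It was most frequent, at 60.0% of 30 windows, in the RNA, ribosome, pore and proteasome members. TTTCCCGC, a form of the E2F site, was in 5.11% of member windows, 2.28% of windows of coding genes with a c-KIT+ mean of at least 7 and 1.5% of all coding windows. On the lists of cyclins, cyclin-dependent kinases, kinetochore, condensin and cohesin, it was in 8.33% of windows of members and 9.72% of windows of other genes. Over all 32851 windows of the table, CCAAT was in 37.4%, TTTGAA in 17.9%, CCGGAA in 14.9%, TTTCCCGC in 1.07%, GATAA in 25.4% and TGTGGT in 16.8%.

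The motifs of GATA and RUNX factors were about as frequent in members as in other genes of similar level. GATAA, the core read by GATA factors, was in 13.1% of member windows, 15.8% of windows of coding genes with a c-KIT+ mean of at least 7 and 20.9% of all coding windows. TGTGGT, the core read by RUNX factors, was in 12.8%, 12.3% and 14.01%. In a comparison set of 149 genes, whose mean was at least 1 higher at day 8 than without factors and at least 1 higher again at day 12 under the same limits on level and overlap, GATAA was in 24.6% and TGTGGT in 30.4% of 138 windows. A match is a run of letters in a window and says nothing of whether a factor binds there.

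Members often lay beside another promoter. A coding gene on the opposite strand started within 1000 bases of 53 of the 238 matched members, or 22.3%, against 15.0% of coding genes with a c-KIT+ mean of at least 7, 9.91% of all coding genes and 1.72% of the genes that were higher at each step. By the starts of the promoter windows both partners were members in 3 such pairs, and by the ends of the gene models in the RefSeq gene table in 4, with Ndufs6, a subunit of complex I, and Mrpl36, of the mitochondrial ribosome, as the further pair. The members Hscb and Chek2 lay 7 bases apart by the gene models, but their orientation was not known and they were not counted. The starts of Mrpl46 and Mrps11, which encode proteins of the mitochondrial ribosome, lay 42 bases apart. Exosc5 and Bckdha, a subunit of the branched-chain keto acid dehydrogenase, started 392 bases apart, and BC055324 and the methyltransferase gene Mettl18 started 93 bases apart.

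The untreated arrays disagreed over the members, and this bears on every value below. Untreated replicate 2 was higher than untreated replicate 1 for 258 of 293 members, and by 1 or more for 145, or 49.5%. The same was true of 7.20% of all coding genes, 12.5% of coding genes with a c-KIT+ mean of at least 7 and 14.1% of the comparison set. The untreated arrays lay within 0.5 of each other for 61 members, or 20.8%, against 64.3% of all coding genes. Over all genes, the untreated pair had a Pearson correlation of 0.907, the CDH5+ pair 0.944 and the c-KIT+ pair 0.969.

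Member levels followed this split. The median member was at 6.68 in untreated replicate 1, 7.63 in untreated replicate 2, 7.06 and 6.92 in CDH5+ cells, and 8.13 and 8.25 in c-KIT+ cells. The CDH5+ mean lay between the untreated arrays, above replicate 1 and below replicate 2, for 217 members, and for 81 of these it was at least 0.5 from each. For 229 members the highest array outside c-KIT+ cells was untreated replicate 2. The c-KIT+ mean was less than 1 above untreated replicate 2 for 235 members and less than 1 above untreated replicate 1 for 33. A similar level in untreated MEFs and CDH5+ cells was therefore, for most members, an average of a lower and a higher untreated array. The cause of the difference between the untreated arrays was not tested.

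**Figure D1:**
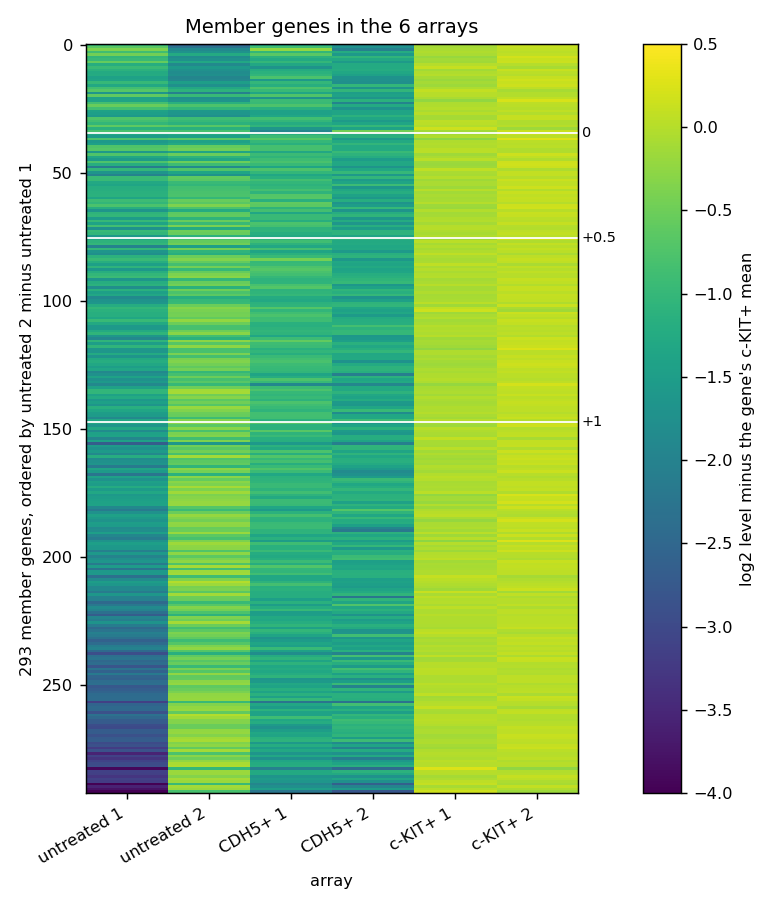
Each row is 1 of the 293 members and each column 1 array, with colour giving the log2 level minus the gene's c-KIT+ mean and rows ordered by untreated replicate 2 minus untreated replicate 1, for which white lines mark 0, 0.5 and 1. Below the lowest line, the 145 members 1 or more apart are dark in untreated replicate 1 and close to the c-KIT+ level in untreated replicate 2.

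Leaving out 1 untreated array shows which members keep the pattern. Without untreated replicate 1 the limits selected 136 genes, of which 102 were members, and 42 of the 293 members then had a CDH5+ mean 1 or more below untreated cells. Without untreated replicate 2 they selected 254 genes, of which 166 were members, and 60 members had a CDH5+ mean 1 or more above untreated cells. The limits were met with either untreated array left out by 59 members, or 20.1%. These were 7 of the 103 replication and mitosis members, 9 of the 40 mitochondrial members, 5 of the 34 RNA, ribosome, pore and proteasome members and 38 of the 116 in no list. With any 1 of the 6 arrays left out, 22 members met the limits throughout.

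**Figure D2:**
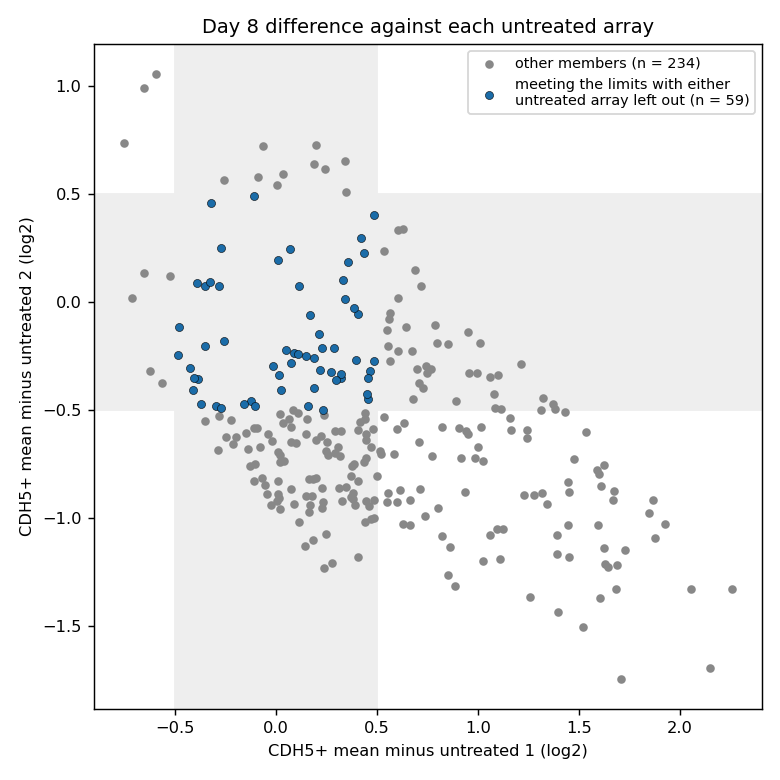
Each point is a member, placed by its CDH5+ mean minus untreated replicate 1 on the horizontal axis and minus untreated replicate 2 on the vertical axis, both log2, with grey bands from -0.5 to 0.5. The 59 blue genes lie where the bands cross, and most other members lie to the right of them, below them or both, with the CDH5+ mean above untreated replicate 1 and below untreated replicate 2.

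The later rise was small for most members. The c-KIT+ mean was 1.00 to 2.51 above the CDH5+ mean, with a median of 1.16, and the comparison set had a median of 1.25. Both sets were chosen for a difference of at least 1, so these medians follow in part from that limit. All 5666 coding genes with a c-KIT+ mean of at least 7 had a median difference of 0.45, and all coding genes 0.12. The distributions of the arrays differed at their upper end, where the 90th percentile of all genes was 7.88 and 7.69 in the CDH5+ arrays and 8.07 and 8.13 in the c-KIT+ arrays. When the 6 arrays were given 1 common distribution by quantile normalization, the median rise of the members was 0.91, 101 of the 293 had a rise of 1 or more, and 83 met all limits. Both c-KIT+ arrays remained above the other 4 for 290 members. The lower c-KIT+ array exceeded the highest other array by a median of 0.49 as deposited, by 1 or more for 23 members and by less than 0.25 for 67.

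The members just inside the limits show how fine these were. Oxa1l, which inserts proteins into the inner mitochondrial membrane, had a later rise of 1.002, while Cdk19, a kinase of the Mediator complex, had 0.999 and was left out. The transcription elongation factor gene Elof1 and the spindle gene Racgap1 had gaps of 0.0038 and 0.0061 to the highest other array, and Dlgap5, another spindle gene, had -0.0035 and was left out. Rrm1, the large subunit of ribonucleotide reductase, had a CDH5+ mean 0.498 below the untreated mean, and Hells, a chromatin remodeler, was outside at 0.501 above it. Chek2, a kinase of the DNA damage response, had a c-KIT+ mean of 7.001, and Rbl1, the retinoblastoma-like protein p107, had 6.987. Another 1488 genes failed the limit on the later rise alone, and 253 failed the limit on the day 8 difference alone.

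Linear models were fitted with limma over all 26323 genes, with p-values adjusted by the Benjamini-Hochberg method. Between c-KIT+ and CDH5+ cells, 0 genes had a limma adjusted p under 0.05, which is 0% of those tested, while 4205 had an unadjusted p under 0.05, of which 225 were members. With dim genes filtered out before the fit, 31 genes were called. In c-KIT+ cells against untreated MEFs it called 854 genes higher, 3.24% of those tested, and 716 lower, 2.72%, and 32 members were among the higher. In CDH5+ cells against untreated MEFs it called 254 higher, 0.965%, and 56 lower, 0.213%, with 0 members among them. The choice of members used these contrasts, so nothing is read from their counts. The 32 called members included 22 of the 61 with untreated arrays within 0.5 and 1 of the 145 with untreated replicate 2 higher by 1 or more, which was Exosc5.

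Probe sets within genes come from the arrays on which the members were chosen, so their values describe how evenly the difference lay over each gene and support nothing. Of the members, 279 had probe sets of their own, 4108 in all, and 94.7% of these had a higher c-KIT+ than CDH5+ mean, against 59.0% over all coding genes. Both c-KIT+ arrays exceeded the other 4 in 69.6% of these probe sets, against 83.2% in the comparison set and 16.5% over all coding genes. The median probe set difference was 1 or more for 202 of the 279 genes.

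The 25 members with the largest gap had varied roles, few of them in cell division. Exosc5 was at 6.60 and 7.65 in untreated MEFs, 7.70 and 7.20 in CDH5+ cells, and 9.18 and 9.36 in c-KIT+ cells. Its gap of 1.48 was the largest among the members, although its untreated arrays were 1.05 apart. Asrgl1, an asparaginase-like enzyme, was at 6.63 and 6.46, then 6.67 and 6.73, then 8.12 and 8.08. In both genes the c-KIT+ arrays were clear of all others, and in Asrgl1 the CDH5+ arrays were slightly above both untreated arrays.

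**Figure D3:**
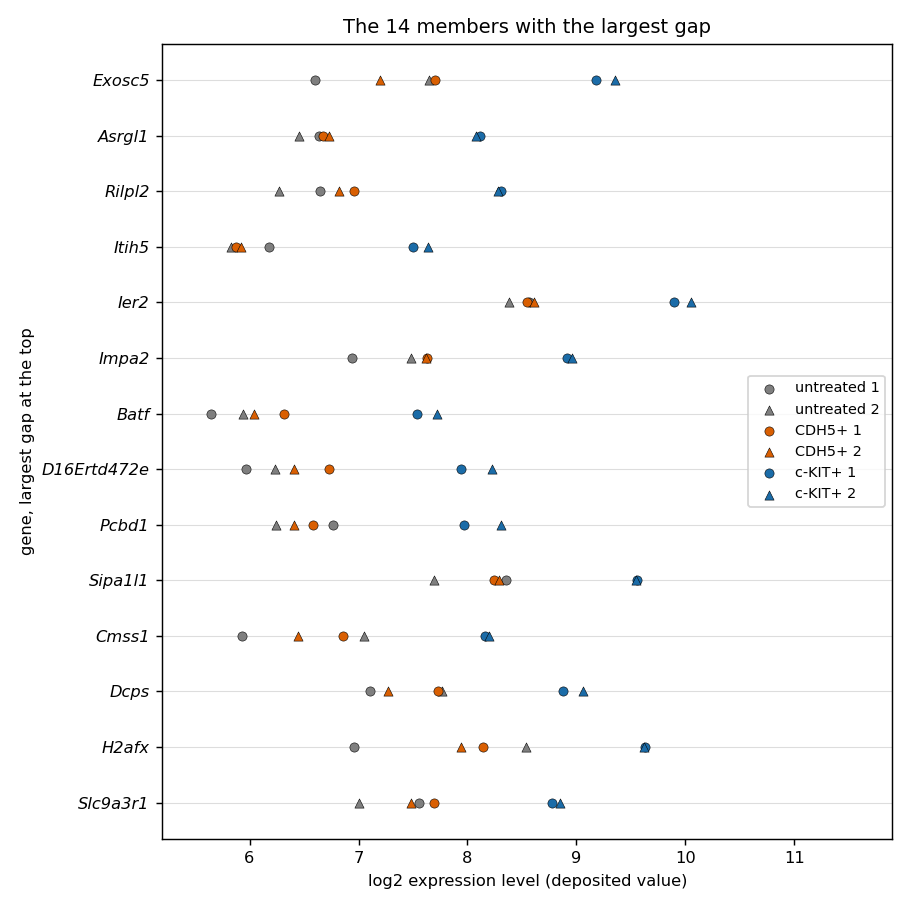
The 14 members with the largest gap are listed downwards, with the deposited log2 level on the horizontal axis, colour for the group and shape for the replicate. The blue c-KIT+ points lie to the right of every grey and orange point in each row, by 1.48 for Exosc5 and by 1.08 for Slc9a3r1.

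Several of these genes encode signalling and trafficking proteins. Ier2, an immediate-early gene induced by growth factors, was at 8.56 and 8.38 in untreated MEFs, 8.54 and 8.61 in CDH5+ cells, and 9.90 and 10.05 in c-KIT+ cells. Rilpl2, a Rab effector of the cilium and lysosome, was at 6.65 and 6.27, 6.96 and 6.82, and 8.31 and 8.28. Sipa1l1, a GTPase-activating protein for Rap, was at 8.36 and 7.69, 8.24 and 8.29, and 9.55 and 9.55. For Ier2, Rilpl2 and Sipa1l1 the c-KIT+ arrays stood 1.19 or more above every other array. Slc9a3r1, a scaffold that links membrane proteins to the cytoskeleton, was at 7.55 and 7.0003, 7.69 and 7.48, and 8.78 and 8.85. Ankrd13a, a ubiquitin-binding protein of receptor endocytosis, was at 7.81 and 7.99, 8.11 and 8.23, and 9.24 and 9.28. Cab39l, a partner of the kinase LKB1, was at 6.48 and 6.53, 6.59 and 6.60, and 7.64 and 7.86. The 4 arrays of Cab39l outside c-KIT+ cells lay close together, at 6.48 to 6.60.

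Others act on small molecules, sugars and matrix. Pcbd1, a dehydratase that regenerates tetrahydrobiopterin and also a cofactor of HNF1, was at 6.77 and 6.25 in untreated MEFs, 6.58 and 6.41 in CDH5+ cells, and 7.96 and 8.31 in c-KIT+ cells. Impa2, an inositol monophosphatase, was at 6.94 and 7.48, 7.63 and 7.62, and 8.92 and 8.96. St3gal4, a sialyltransferase, was at 6.11 and 5.95, 6.34 and 6.57, and 7.58 and 7.79. Untreated levels of St3gal4 were near the background, and c-KIT+ levels were clear of it. Itih5, a hyaluronan-associated inhibitor heavy chain, was at 6.18 and 5.83, 5.87 and 5.92, and 7.50 and 7.64. Tnfaip6, a hyaluronan-binding protein induced by inflammation, was at 6.32 and 6.91, 6.94 and 6.92, and 8.15 and 8.01. Clic3, an intracellular chloride channel family protein, was at 6.02 and 5.42, 5.90 and 5.91, and 7.01 and 7.25. Both Itih5 and Clic3 were within or close to the background in all arrays but those of c-KIT+ cells.

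RNA processing supplied further genes with a large gap. Dcps, the scavenger decapping enzyme, was at 7.10 and 7.77 in untreated MEFs, 7.73 and 7.27 in CDH5+ cells, and 8.88 and 9.06 in c-KIT+ cells. Clp1, an RNA kinase of the 3′ end and tRNA splicing machinery, was at 5.91 and 6.49, 6.18 and 6.00, and 7.53 and 7.59. Cmss1, a ribosome assembly factor known from yeast, was at 5.93 and 7.05, 6.86 and 6.45, and 8.16 and 8.19. Untreated replicate 2 was the highest array outside c-KIT+ cells for each of the 3 genes.

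Few genes on blood lists were in the set. Of 571 genes on 18 lists of blood lineages, receptors, granules, signalling and transcription factors, 1 was a member, against 1.47% of all coding genes. The comparison set held 57 of them, against 0.745% of all coding genes. The limits leave out genes already higher at day 8 and genes with a c-KIT+ mean under 7, so these counts partly follow from the choice of members. The member was Batf, a basic leucine zipper factor of lymphoid and myeloid cells, at 5.64 and 5.94 in untreated MEFs, 6.31 and 6.04 in CDH5+ cells, and 7.53 and 7.72 in c-KIT+ cells. Among the other 57 blood transcription factors, limma called 23 higher and 3 lower at day 12 relative to untreated MEFs, against 3.24% and 2.72% over all genes, with a median difference of 0.48 over those 57. Myb, which drives progenitor growth, had group means of 4.16, 10.13 and 10.88, and Ikzf1, a lymphoid and progenitor factor, 4.16, 7.05 and 8.23. Myb and Ikzf1 had risen at day 8, but over the 57 factors the median CDH5+ minus untreated difference was 0.32. Of the 57, limma called 16 higher and 1 lower at day 8, against 0.965% and 0.213% over all genes. The CDH5+ mean of Batf was 0.38 above its untreated mean, near the median of the 57. Kit itself had group means of 4.64, 7.14 and 8.26 and belongs to the comparison set.

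Ctsc, the protease that activates the granule serine proteases, was the member from a list of 30 proteases and their inhibitors. That list was not counted among the 18 blood lists. Nor was a list of 28 ion channels and solute carriers of blood cells, which held 0 members, against 1.47% of all coding genes. Ctsc was at 5.95 and 7.30 in untreated MEFs, 6.68 and 7.01 in CDH5+ cells, and 7.94 and 7.93 in c-KIT+ cells. Its substrate Ctsg had group means of 4.22, 10.59 and 11.64 and was already high at day 8. Untreated replicate 2 of Ctsc was 0.63 below the c-KIT+ mean.

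Genes of DNA replication and mitosis made up the largest group with a named role. Their 103 members had a median rise of 1.26 from CDH5+ to c-KIT+ cells, and untreated replicate 2 was 1 or more above untreated replicate 1 for 87 of them, or 84.5%. Relative to the c-KIT+ mean, the median of these members was -2.39 in untreated replicate 1, -0.49 in untreated replicate 2, and -1.27 and -1.29 in CDH5+ cells. Of 210 genes on the same lists that were not members, 202 had a higher mean in c-KIT+ than in CDH5+ cells with a median difference of 0.87, and 118, or 56.2%, had untreated replicate 2 higher by 1 or more. By the medians of the 103 members, the order was untreated replicate 1 lowest, then both CDH5+ arrays, then untreated replicate 2, then c-KIT+ cells. The limits place c-KIT+ cells highest and the CDH5+ mean near the untreated mean, so this order largely follows from the choice of members. Of the 210 other genes, 76 had a lower c-KIT+ array that did not exceed the highest other array.

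**Figure D4:**
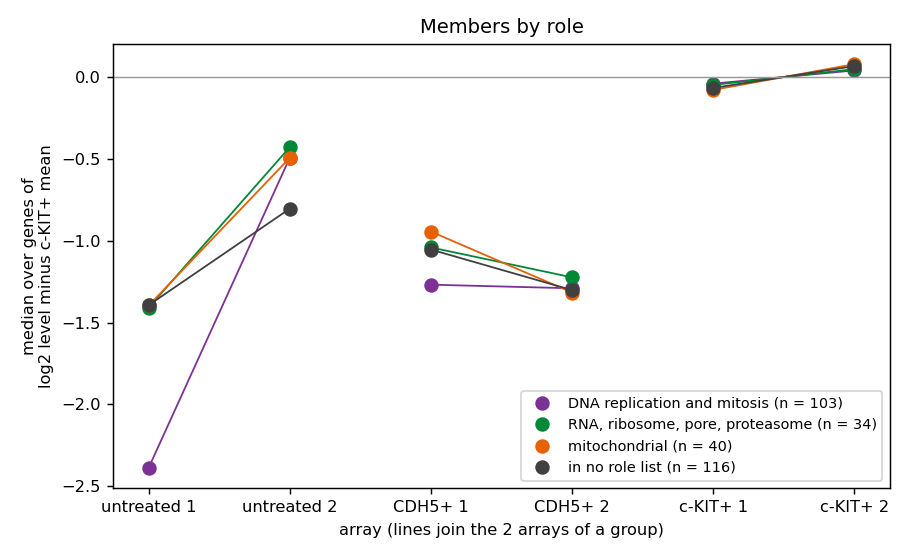
Each point is the median, over the members of a role group, of the log2 level minus the gene's c-KIT+ mean, with the 6 arrays on the horizontal axis and lines joining the 2 arrays of a population. The 103 replication and mitosis members fall to -2.39 in untreated replicate 1 and reach -0.49 in untreated replicate 2, whereas the 116 members in no role list lie at -1.39 and -0.80.

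Of a list of 52 cell cycle genes, 12 were members, or 23.1%, against 1.47% of all coding genes. Untreated replicate 2 was 1 or more above replicate 1 in all 12. Mcm2, a subunit of the replicative helicase, was at 6.03 and 7.64 in untreated MEFs, 7.06 and 7.23 in CDH5+ cells, and 8.39 and 8.58 in c-KIT+ cells. Mcm4, of the same ring, was at 6.61 and 8.19, 7.38 and 7.17, and 8.66 and 8.72. For both helicase genes the c-KIT+ arrays were the highest, and untreated replicate 2 was 0.46 to 0.75 below the lower of them. Among the other 40 genes of the list, limma called 2 higher and 1 lower at day 12 relative to untreated MEFs. Over all genes the shares were 3.24% higher and 2.72% lower, so these counts are near the background. Untreated replicate 2 was 1 or more above replicate 1 for 44 of the 52 genes, and this spread enters the test. The median day 12 difference of the 40 genes from untreated MEFs was 1.28. The kinase gene Cdk6 differed by 2.41 (SE 0.39, limma adjusted p = 0.0263), the E2F factor gene E2f2 by 1.32 (SE 0.20, limma adjusted p = 0.0235) and the D-type cyclin gene Ccnd1 by -2.63 (SE 0.21, limma adjusted p = 0.0032).

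The mitotic genes whose promoters are printed above came closer to overlap. Cdc20 was at 5.33 and 7.95 in untreated MEFs, 6.71 and 6.47 in CDH5+ cells, and 8.27 and 8.33 in c-KIT+ cells. Aurka was at 5.88 and 8.71, 7.72 and 7.75, and 8.99 and 9.03. Ttk was at 4.39 and 7.36, 6.02 and 5.97, and 7.59 and 7.79. Untreated replicate 2 was within 0.32 of the lower c-KIT+ array for all 3 genes, and untreated replicate 1 was 2.62 to 2.97 below untreated replicate 2. Ccna2, the cyclin of S and G2 phase, was at 5.93 and 8.80, 7.63 and 7.67, and 8.83 and 8.84, so that untreated replicate 2 and c-KIT+ replicate 1 differed by 0.03. For each of the 4 genes the CDH5+ mean was above untreated replicate 1, by 1.26 for Cdc20, and below untreated replicate 2, by 1.37 for Cdc20.

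Other steps of replication were represented in a like manner. The GINS helicase subunits supplied Gins1, Gins2 and Gins4 of 4 measured Gins genes. Gins1 was at 4.65 and 6.79, 6.01 and 5.41, and 7.38 and 7.42, whereas Gins4 started higher at 8.22 and 8.79, 8.39 and 7.96, and 9.15 and 9.33. Nucleotide and folate synthesis supplied 14 of 37 measured genes, or 37.8%, against 1.47% of all coding genes. The 14 included all 3 of Prps1, Prps2 and Prps1l3. Prps2, a phosphoribosyl pyrophosphate synthetase, was at 6.83 and 7.19, 7.50 and 6.59, and 8.09 and 8.29, and it met the limits with either untreated array left out. Prps1 had untreated arrays at 7.34 and 8.92 and c-KIT+ arrays at 9.25 and 9.33. Prps1l3 is a near copy of Prps1 and its separate value is uncertain.

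A later rise of 2 or more was seen for 4 members, Cenpp, a kinetochore protein, and 3 histone genes. Histone genes of the same core type, such as H2A or H2B, are nearly identical in sequence, and their probe sets may read one another. Hist1h2ab was at 2.76 and 6.61 in untreated MEFs, 5.19 and 4.63 in CDH5+ cells, and 7.59 and 7.26 in c-KIT+ cells, a later rise of 2.51. Hist1h2bb was at 4.05 and 7.44, 6.46 and 5.76, and 8.48 and 8.29. Hist1h1a was at 3.25 and 6.15, 5.14 and 4.74, and 7.41 and 6.90. The lower of these levels lay within the background. Of 41 measured histone genes, 5 were members, or 12.2%, against 1.47% of all coding genes. H2afx, the histone variant that marks DNA breaks, was at 6.96 and 8.53, 8.14 and 7.94, and 9.63 and 9.62, and its gap of 1.08 was among the 25 largest.

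A few genes of this group had untreated arrays less than 1 apart. Tfdp2, the dimerisation partner of E2F factors, was at 6.27 and 6.19 in untreated MEFs, 6.08 and 5.95 in CDH5+ cells, and 7.32 and 7.27 in c-KIT+ cells. Parp1, which senses DNA strand breaks, was at 7.11 and 7.79, 7.51 and 7.36, and 8.72 and 8.87. Helb, a DNA helicase that limits end resection, was at 6.09 and 6.32, 6.35 and 6.18, and 7.33 and 7.47. All 3 met the limits with either untreated array left out, as did H2afv, Prps2 and the spindle gene Haus2. H2afv, an H2A.Z histone, was at 8.14 and 8.23, 8.74 and 8.51, and 9.65 and 9.71.

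Mitochondrial members numbered 40 of 237 measured genes on 4 lists, against 1.47% of all coding genes, and had a median rise of 1.14. Untreated replicate 2 was 1 or more higher for 15 of them, and for 10 the untreated arrays lay within 0.5. Proteins of the mitochondrial ribosome were the largest family, with 11 of 47 Mrpl genes and 3 of 30 Mrps genes. Mrpl41 was at 9.15 and 9.49, 9.32 and 8.73, and 10.19 and 10.51. Mrpl14 was at 7.89 and 8.16, 8.12 and 7.76, and 8.91 and 9.25, and Mrpl44 at 6.45 and 7.11, 6.82 and 6.72, and 7.85 and 7.91. These 3 met the limits with either untreated array left out, whereas Mrps28, at 8.49 and 9.82 in untreated MEFs and 10.05 and 10.14 in c-KIT+ cells, did not.

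Iron-sulfur cluster assembly supplied 6 of 24 measured genes, or 25%, against 1.47% of all coding genes. Among the 6 were Hscb and Bola1. Hscb, the cochaperone that hands on the new cluster, was at 6.54 and 6.06 in untreated MEFs, 6.51 and 5.77 in CDH5+ cells, and 7.42 and 7.64 in c-KIT+ cells. Bola1, a further mitochondrial factor of the pathway, was at 5.96 and 6.37, 6.75 and 5.93, and 7.58 and 7.62. Over the whole list of 24 genes, the median c-KIT+ minus CDH5+ difference was 0.60, and all 24 were higher in c-KIT+ cells.

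The respiratory chain gave 10 of 104 measured genes, or 9.62%, against 1.47% of all coding genes. Uqcr10, a small subunit of complex III, was at 9.09 and 8.56 in untreated MEFs, 9.29 and 8.91 in CDH5+ cells, and 10.32 and 10.33 in c-KIT+ cells. At the gene level, the untreated order of Uqcr10 was the reverse of that in most members. Over its 5 probe sets, however, the median of untreated replicate 2 minus untreated replicate 1 was 0.57. Ndufaf3, an assembly factor of complex I, was at 8.36 and 7.93, 8.46 and 7.55, and 9.15 and 9.27. The electron transfer flavoprotein subunit Etfb, on no list, was at 9.56 and 9.91, 9.98 and 9.28, and 10.61 and 10.75. Tfam, which packages and transcribes mitochondrial DNA, was at 6.16 and 7.08, 6.43 and 5.92, and 7.12 and 7.28, so that untreated replicate 2 came within 0.04 of c-KIT+ replicate 1.

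The 34 members of RNA processing, ribosome assembly, nuclear pore and proteasome assembly had a median rise of 1.09. Untreated replicate 2 was above replicate 1 in all 34. Nup107, whose promoter is shown, was at 6.27 and 7.86, 6.78 and 6.58, and 7.93 and 8.01, while Nup62, of the central channel, was at 7.97 and 8.86, 8.32 and 8.21, and 9.26 and 9.36. Of 4 measured Psmg genes, whose products chaperone assembly of the proteasome core, 3 were members. Psmg2 was at 7.86 and 8.52, 7.93 and 7.95, and 8.90 and 9.12. Sf3b5, of the U2 spliceosome, was at 9.60 and 10.33, 10.01 and 9.66, and 10.89 and 10.94 and met the limits with either untreated array left out.

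The 59 members that met the limits with either untreated array left out had medians of 6.92 and 7.19 in untreated MEFs, 7.10 and 6.83 in CDH5+ cells, and 8.09 and 8.31 in c-KIT+ cells. In addition to genes named above they included Cited2, a coactivator that restrains HIF1, at 9.97 and 9.55, 9.68 and 9.61, and 10.73 and 10.57. Tnfrsf21, the death receptor DR6, was at 6.83 and 7.04, 7.10 and 7.43, and 8.44 and 8.37. Ptprj, the receptor phosphatase CD148, was at 5.92 and 6.15, 6.56 and 5.95, and 7.49 and 7.43. After quantile normalization as well, 18 of the 59 met the limits, among them Asrgl1, Itih5, Ier2, Pcbd1, Clp1, Tfdp2, Parp1, Ptprj and Mrpl41.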

How the data were processed

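The arrays, 6 of the Mouse Exon 1.0 ST type, give RNA levels per gene and per probe set. The values are normalized log2 signals as the authors deposited them, 26323 genes and 1236087 probe sets, 1 column per array. The sources used here do not name the normalization, software, genome build or annotation behind them. No rows were filtered out and no scaling was added.

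Of the gene rows, 19988 are protein coding, and the limits were applied to these. A linear model of the 3 groups over 6 arrays (limma 3.58.1, R 4.3.3, 3 residual degrees of freedom) was run for every gene, and p-values were adjusted over all 26323 genes. The number of arrays limits the precision. Two-sided contrasts were called at an adjusted p under 0.05. The fit was tested on simulated data.

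The members and lists were chosen with earlier results of these data known. Named genes are the 25 members with the largest gap, up to 6 members and 4 other genes per gene list, members of families that share a symbol stem, and genes next to each limit. All other named genes, the role lists and the motif TTTGAA were chosen after the values were seen. Probe sets were assigned to genes where the platform annotation lists 1 symbol (321091 probe sets, with 7796 listing several and 907200 none). Symbols are those of the deposited table, matched to current names through RefSeq, among them H2afx (H2ax), H2afv (H2az2), Hist1h2ab (H2ac4), Hist1h2bb (H2bc3) and Hist1h1a (H1f1). The motifs searched on both strands were GATAA for GATA factors, CCGGAA and the longer GAGGAAG for ETS factors, TGTGGT for RUNX factors, TTGCGNAA for C/EBP factors, CANCTG for E-box proteins, the interferon-stimulated response element, TTTCCCGC for E2F factors, CCAAT for NF-Y, GGGCGG for Sp factors, TATAAA for the TATA box, TGACTCA for AP-1 and TTTGAA for the cell cycle homology region.

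Alternatives were quantile normalization, median centring, the median of probe sets, other limits, each array left out in turn, a block for the replicate number, 1 row per symbol, a filter on dim genes, an intensity trend and robust variances. Results for some members that the rule names are not reported here.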

Additional observations from a re-analysis of the deposited data

How the results depend on the processing

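The number of members depended on the processing, and each limit moved it. From 293, it was 94 after quantile normalization, 459 with the median of probe sets as the gene value, 152 with a day 8 limit of 0.25, and 29 with a later rise of 1.5. Median centring gave 261, a day 8 limit of 1 gave 396, a c-KIT+ mean of 6 gave 365, no demand on single arrays gave 330, and 1 row per symbol gave 293. With single arrays left out it ranged from 136 to 406. The labels do not say whether same-numbered arrays were paired. Deviations of same-numbered arrays correlated at 0.120 for untreated and CDH5+, -0.015 for untreated and c-KIT+ and -0.046 for CDH5+ and c-KIT+. With 2 arrays per group, these values cannot show whether the arrays were paired. Asking both differences to hold within each same-numbered trio of arrays, a replicate block, left 19. The median rise of the members, 1.16, was 0.91 after quantile normalization, 1.14 after median centring and 1.24 with probe sets, and 1.09 to 1.28 with single arrays left out. For the differences of the 67 members named by rule, 66 values under single alternatives moved by more than the replicate spread and 398 did not. None changed sign, but with a single array left out the limit on single arrays had fixed the sign in advance.

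Limma called 0 genes between c-KIT+ and CDH5+ cells with the replicate block, quantile normalization, median centring, an intensity trend and robust variances, and 31 of 12753 with the filter on dim genes. Leaving out any single array also gave 0, at unadjusted p under 0.05 for 1714 to 6254 genes. CDH5+ cells against untreated MEFs gave 310 calls, 198 with the replicate block, 572 with the filter on dim genes and 67 to 339 with single arrays left out. The lowest, 67, was without CDH5+ replicate 2, and leaving out either c-KIT+ array gave 114. c-KIT+ cells against untreated MEFs gave 1570 calls, 1111 with the replicate block and 148 to 3025 with single arrays left out. It was 148 without c-KIT+ replicate 1, 170 without c-KIT+ replicate 2 and 3025 without untreated replicate 2. Where an array was left out, the remaining array of its group was assumed to vary like the other groups. The cause of these changes was not tested. Scanner signals over background were not analysed here.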

Other observations

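Members were spread over the genome, with 7 to 25 on each autosome and 11 of 715 measured coding genes on chromosome X. The share of measured coding genes that were members was highest on chromosome 13, at 21 of 729 or 2.88%, and lowest on chromosome 4, at 1.01%. Chromosome 13 carries the histone cluster from which Hist1h1a, Hist1h2bb and Hist1h2ab come.

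Members were 1.47% of all coding genes, and the counts of 0 in the lists below are near that share. Of 28 genes of cholesterol and lipid synthesis, 0 were members, and 27 had a higher mean in c-KIT+ than in CDH5+ cells, with a median difference of 0.56. Their median level was 7.76 and 8.60 in untreated MEFs, 7.96 and 7.87 in CDH5+ cells, and 8.52 and 8.54 in c-KIT+ cells, so untreated replicate 2 was as high as c-KIT+ cells. Of 35 genes of glycolysis and amino acid metabolism, 0 were members and the median difference was 0.36.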
